A study of Homo sapiens with 12 samples.

Results

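The 10 genes described here, EXOSC1 to EXOSC10, encode the subunits of the human RNA exosome. They were chosen by symbol: a probe set belonged to a gene if that gene was the only one annotated to it. All 10 were measured, among 16883 genes tested in the whole table. They carried 166 probe sets, of which 129 passed a filter on dim values, from 5 for EXOSC3 to 35 for EXOSC10. One further probe set is shared by EXOSC3 and SHB and was left out.

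The study looked for mRNAs that are substrates of the cytoplasmic capping enzyme complex, in the human osteosarcoma cell line U2OS with K294A, a catalytically inactive capping enzyme, under doxycycline control. Cytoplasmic RNA was depleted of ribosomal RNA, labelled and hybridised to exon arrays, which hold several short probe sets for each gene. A portion of the samples was first digested in the tube with Xrn1, a purified exonuclease that degrades RNA from a 5′ monophosphate end and is stopped by a cap. The 12 arrays form 4 groups of 3: induced (doxycycline at 1 ug/ml for 24 h) and digested with Xrn1, induced and untreated, uninduced and digested, and uninduced and untreated. All 4 groups come from the same stable line, so every cell carries the construct and the uninduced cells received no doxycycline. The labels call the samples biological replicates without saying whether they were separate cultures, so p-values rest on the spread between these samples. The limma p-values below pool that spread over all genes. The level of K294A itself was not analysed here.

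The exosome degrades and trims RNA from its 3′ end, in the nucleus and in the cytoplasm, and so works from the opposite end to Xrn1. Its core is a barrel. A ring of 6 subunits that resemble the bacterial enzyme RNase PH is built from the pairs EXOSC4 with EXOSC9, EXOSC5 with EXOSC8 and EXOSC6 with EXOSC7, and a cap of 3 RNA-binding subunits, EXOSC1, EXOSC2 and EXOSC3, sits on top. In human cells the barrel threads RNA but has no catalytic activity of its own. The cutting is done by attached nucleases, among them EXOSC10 and DIS3. What was measured here is the mRNA of each subunit, not the complex.

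Levels are log2 values of the robust multi-array average (RMA), as deposited, averaged over the kept probe sets of a gene. They can be followed for 1 gene across arrays but not compared between genes, because probes differ in affinity. Of 10 mesenchymal and osteosarcoma markers, 5 averaged above 7 in untreated samples (VIM, FN1, SPARC, COL1A1 and LGALS1). The other 5 did not: CD44 averaged 5.60, RUNX2 3.73, S100A6 3.68, COL1A2 3.23 and NT5E 2.54. The 16 markers of other cell types that were measured had a mean between 2.76 and 3.57 on each array, and the highest averaged 4.34 in untreated samples. Between 110 and 298 genes were above 6 on each Xrn1 array, against 327 to 1114 on each untreated array. Some arrays stood apart from their groups. The third induced untreated array had a correlation of 0.979 with the third uninduced untreated array, but of 0.835 and 0.870 with those of its own group, and uninduced Xrn1 replicate 2 correlated at 0.711 and 0.847 with its group.

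Most subunit mRNAs were lower after Xrn1 digestion, relative to other genes, and 1 was higher. Averaged over induced and uninduced cells, 6 of the 10 were lower after Xrn1 at an adjusted p under 0.05 (EXOSC1, EXOSC2, EXOSC3, EXOSC8, EXOSC9 and EXOSC10), 1 was higher (EXOSC4), and 3 did not pass (EXOSC5, EXOSC6 and EXOSC7). Of all genes tested, 29.8% were called lower and 14.2% higher in this comparison. The median change of the 10 subunits was -0.92 on the log2 scale, against 0.05 over all genes. Here and below, the values over all genes are not matched for level. The mean of the subunits lay 0.69 to 1.26 above the median gene on untreated arrays and 0.23 to 0.48 above it on Xrn1 arrays. Differences come from limma fitted to all genes, with Benjamini-Hochberg adjustment over all of them, and have a standard error of 0.24 for the average and 0.34 within 1 state. Changes are relative to the other genes on the same array, since RMA sets all arrays to 1 distribution. Where induced cells are compared with uninduced cells, fewer cells of a type and less RNA per cell cannot be told apart in bulk RNA.

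Tested gene by gene, without borrowing the spread of other genes, the same 7 subunits had an exact permutation p under 0.05 for the average (two-sided, unadjusted, 400 assignments). EXOSC2, EXOSC3, EXOSC4 and EXOSC9 had an exact permutation p of 0.005, the smallest this design can give. EXOSC8 had an exact permutation p of 0.01, EXOSC10 of 0.02 and EXOSC1 of 0.03. EXOSC5, EXOSC6 and EXOSC7 had exact permutation p-values of 0.46, 0.285 and 0.235. The 7 limma calls for the average held under all 22 alternative settings. The exact permutation p was less steady: it was 0.065 for EXOSC1 with no filter on dim probe sets and 0.07 for EXOSC10 after cyclic loess, and EXOSC6 reached an exact permutation p of 0.005 after centring or cyclic loess.

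**Figure D1:**
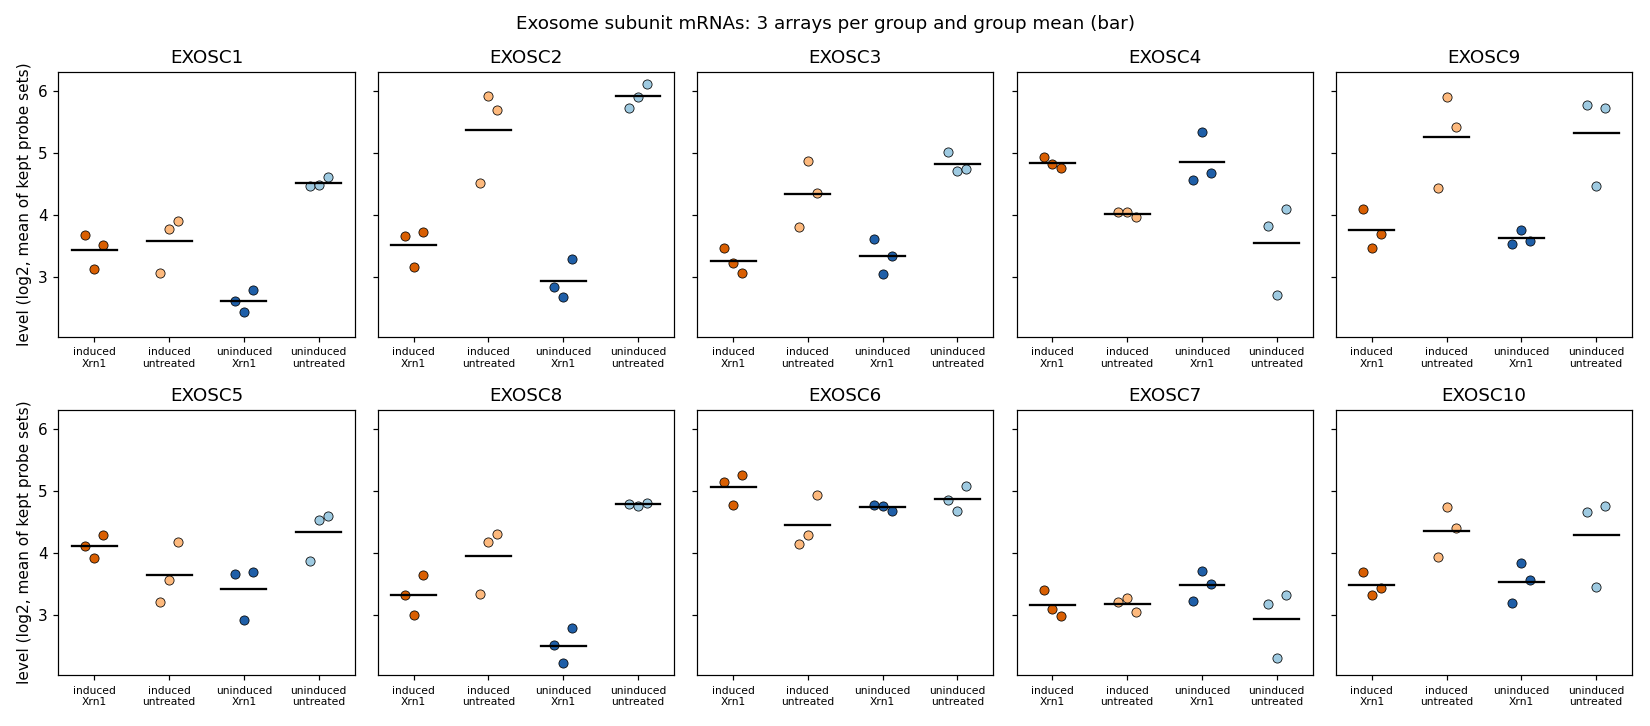
Level (log2, RMA) of each subunit on every array, in induced Xrn1, induced untreated, uninduced Xrn1 and uninduced untreated samples, with bars at the group means (n = 3). EXOSC2, EXOSC3 and EXOSC9 lie lower with Xrn1 in both states with no overlap, EXOSC4 lies higher with Xrn1 in both, and EXOSC7 overlaps in both.

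Within induced cells, 4 subunits were called lower after Xrn1 (17.8% of all genes were) and 1 higher (21.6% of all genes). Within uninduced cells, 6 were called lower, against 31.8% of all genes, and 1 higher, against 7.24%. EXOSC2, EXOSC3 and EXOSC9 were called lower in both states, EXOSC4 higher in both, and EXOSC6 and EXOSC7 in neither. The values of Xrn1 and untreated samples did not overlap, in the lower direction, for 4 subunits in induced cells (22.6% of all genes) and 6 in uninduced cells (33.6%). In the higher direction they did not overlap for 1 subunit in each state, against 28.3% of all genes in induced and 11.2% in uninduced cells. The median change was -0.38 in induced cells (0.10 over all genes) and -1.20 in uninduced cells (-0.27 over all genes). With 3 arrays against 3, an exact permutation test of a single subunit within 1 state cannot go below p = 0.1.

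**Figure D2:**
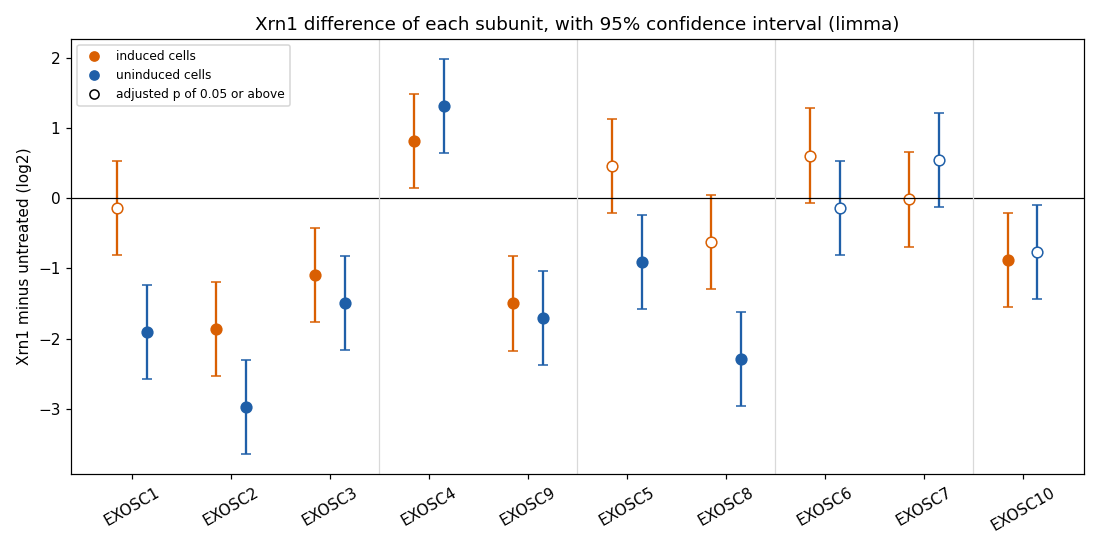
Xrn1 minus untreated (log2) for each subunit in induced and uninduced cells, with 95% confidence intervals from limma; filled points have an adjusted p under 0.05. The subunits are ordered by place in the complex, with the cap first, then the ring pairs, then EXOSC10; EXOSC2 lies lowest in both states and EXOSC4 highest.

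Among the cap subunits, EXOSC2 (gene ID 23404, GRCh38.p14 chr9:130693760-130704894), an RNA-binding subunit also called RRP4, changed most. It had levels of 3.66, 3.15 and 3.72 in induced Xrn1 samples, against 4.50, 5.92 and 5.69 in induced untreated samples. In uninduced cells it had 2.84, 2.68 and 3.29 with Xrn1, against 5.72, 5.89 and 6.11 without. Every Xrn1 array lay below every untreated array, in both states. The difference was -1.86 in induced cells (95% confidence interval -2.53 to -1.19, limma adjusted p = 1.76e-06), a 3.63-fold lower level. In uninduced cells it was -2.97 (-3.64 to -2.30, limma adjusted p = 2.68e-16), 7.85-fold lower, which placed EXOSC2 among the lowest 1.24% of all genes. With the gene's own spread the limma adjusted p was 0.0299 in induced and 0.00106 in uninduced cells.

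EXOSC3 (gene ID 51010, chr9:37779714-37785092), the cap subunit known as RRP40 that is mutated in a form of pontocerebellar hypoplasia, had levels of 3.46, 3.22 and 3.07 in induced Xrn1 samples, against 3.80, 4.86 and 4.34 in induced untreated samples. The corresponding uninduced levels were 3.60, 3.04 and 3.34 with Xrn1, against 5.02, 4.70 and 4.74 without. The groups did not overlap in either state, though induced untreated replicate 1 lay close to the Xrn1 arrays. The difference was -1.09 in induced cells (limma adjusted p = 0.00707) and -1.49 in uninduced cells (limma adjusted p = 7.69e-05). Without induced untreated replicate 2 the induced difference was -0.82 (limma adjusted p = 0.108), and without induced Xrn1 replicate 3 the limma adjusted p was 0.0527.

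EXOSC1 (gene ID 51013, chr10:97435909-97446006), the cap subunit called CSL4, fell in uninduced cells. Its levels there were 2.61, 2.43 and 2.79 with Xrn1, against 4.47, 4.48 and 4.60 without, a 3.74-fold lower level after Xrn1 (log2 difference -1.90, limma adjusted p = 2.74e-07). In induced cells it had 3.67, 3.13 and 3.52 with Xrn1, against 3.05, 3.77 and 3.90 without, and these groups overlapped. The induced difference was -0.14 (95% confidence interval -0.80 to 0.53, limma adjusted p = 0.795).

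In the ring, EXOSC9 and EXOSC4, which bind each other, changed in opposite directions. EXOSC9 (gene ID 5393, chr4:121801323-121817021), also known as RRP45 and as a polymyositis and scleroderma autoantigen, had levels of 4.09, 3.47 and 3.69 in induced Xrn1 samples, against 4.44, 5.89 and 5.42 in induced untreated samples. Uninduced cells had EXOSC9 levels of 3.52, 3.75 and 3.58 with Xrn1, against 5.78, 4.47 and 5.72 without. All Xrn1 arrays lay below all untreated arrays of their state, and the untreated groups were wide (SD 0.74 in each). The difference was -1.50 in induced cells (limma adjusted p = 0.00017) and -1.71 in uninduced cells (limma adjusted p = 4.88e-06). With each gene's own spread in place of the spread shared by all genes, the induced call ended (limma adjusted p = 0.062).

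EXOSC4 (gene ID 54512, chr8:144064056-144080648), the ring subunit RRP41, had levels of 4.92, 4.81 and 4.76 in induced Xrn1 samples, against 4.04, 4.05 and 3.96 in induced untreated samples. Uninduced levels were 4.57, 5.33 and 4.68 with Xrn1, against 3.82, 2.71 and 4.10 without. It was the only subunit whose Xrn1 arrays all lay above the untreated arrays, and this held in both states. The difference was 0.81 in induced cells (limma adjusted p = 0.0451) and 1.31 in uninduced cells (limma adjusted p = 0.000608), and 99.6% of all genes had a lower value in the uninduced comparison. Uninduced replicate 2 held both the lowest untreated and the highest Xrn1 value. Without that pair of arrays the uninduced difference was 0.66 (limma adjusted p = 0.0706), while the average was still called at 0.74 (limma adjusted p = 0.0026). The induced call held in 9 of 23 alternative settings. It ended with each gene's own spread (limma adjusted p = 0.115) and when any of the 6 induced arrays, or an uninduced replicate 3 array, was left out, with values of 0.77 to 0.85. With probe sets summarised by their median the difference was 0.59 (limma adjusted p = 0.264). The call was also lost with only probe sets above the upper quartile of all means (0.0638), with a trended prior (0.0518), and with the replicate number (0.0507) or sample number (0.0848) as a block.

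The second ring pair is EXOSC8 with EXOSC5. EXOSC8 (gene ID 11340, chr13:37000786-37009614), also called RRP43, had levels of 3.33, 3.00 and 3.64 in induced Xrn1 samples, against 3.34, 4.18 and 4.31 in induced untreated samples. The uninduced levels were 2.51, 2.22 and 2.78 with Xrn1, against 4.80, 4.76 and 4.81 without. The uninduced groups were far apart and the induced groups overlapped. The difference was -0.62 in induced cells (95% confidence interval -1.29 to 0.05, limma adjusted p = 0.136) and -2.29 in uninduced cells (limma adjusted p = 4.66e-10), a 4.88-fold lower level after Xrn1. The induced difference was called lower in 4 of 23 alternative settings. Without induced untreated replicate 1 it was -0.92 (limma adjusted p = 0.0391). With only probe sets above the upper quartile of all means it was -1.26 (limma adjusted p = 0.00364). After centring each array on its median gene it was -0.73 (limma adjusted p = 0.0321), and after cyclic loess -0.76 (0.0187). In the other direction, with no filter on dim probe sets the induced difference was -0.20 (limma adjusted p = 0.649). The uninduced difference was then -1.29 (limma adjusted p = 0.000217).

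EXOSC5 (gene ID 56915, chr19:41386374-41397359), also called RRP46, had levels of 4.11, 3.92 and 4.29 in induced Xrn1 samples, against 3.21, 3.56 and 4.17 in induced untreated samples. In uninduced cells it had 3.65, 2.91 and 3.69 with Xrn1, against 3.87, 4.52 and 4.60 without. The induced groups overlapped and the uninduced groups were separated by a narrow gap. The difference was 0.46 in induced cells (limma adjusted p = 0.293) and -0.91 in uninduced cells (limma adjusted p = 0.0232). The uninduced call was lost under several settings, most of all after cyclic loess (-0.31, limma adjusted p = 0.366), after centring each array on its median gene (-0.55, 0.108), without the pair of uninduced replicate 2 arrays (-0.56, 0.239) and with the gene's own spread (0.0635). It was also lost without uninduced Xrn1 replicate 2 alone (-0.66, limma adjusted p = 0.181), without uninduced untreated replicate 2 (-0.81, 0.0653) or 3 (-0.78, 0.105), and with the sample number as a block (0.0502).

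The third ring pair, EXOSC6 with EXOSC7, was called in neither state. EXOSC6 (gene ID 118460, chr16:70246778-70251940), also called MTR3, had levels of 5.14, 4.78 and 5.26 in induced Xrn1 samples, against 4.14, 4.29 and 4.94 in induced untreated samples. The uninduced samples had 4.77, 4.75 and 4.67 with Xrn1, against 4.85, 4.68 and 5.09 without. The groups overlapped in both states. The difference was 0.61 in induced cells (95% confidence interval -0.06 to 1.28, limma adjusted p = 0.147) and -0.14 in uninduced cells (-0.81 to 0.53, limma adjusted p = 0.791). This subunit depended on the scaling: after cyclic loess between arrays the differences were 0.92 and 0.96 (limma adjusted p = 0.0044 and 0.0027).

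EXOSC7 (gene ID 23016, chr3:44976244-45012668), also called RRP42, had levels of 3.40, 3.10 and 2.98 in induced Xrn1 samples, against 3.21, 3.28 and 3.05 in induced untreated samples. Its uninduced levels were 3.23, 3.71 and 3.49 with Xrn1, against 3.18, 2.31 and 3.33 without, and the lowest was again uninduced untreated replicate 2. The groups overlapped in both states. The difference was -0.02 in induced cells (-0.69 to 0.65, limma adjusted p = 0.974) and 0.54 in uninduced cells (-0.13 to 1.21, limma adjusted p = 0.206). Centring each array on its median gene brought the uninduced difference to 0.90 (limma adjusted p = 0.0087).

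Taking the difference of both partners on each array shows how the pairs moved relative to each other. Its zero has no meaning, since the probes differ, and only changes between groups can be read. EXOSC9 minus EXOSC4 averaged -1.08 ± 0.26 in induced Xrn1 samples and 1.23 ± 0.75 in induced untreated samples, and -1.24 ± 0.29 in uninduced Xrn1 and 1.78 ± 0.17 in uninduced untreated samples (SD, n = 3 each). EXOSC8 minus EXOSC5 averaged -0.78 ± 0.14 with Xrn1 and 0.30 ± 0.28 without in induced cells, and -0.92 ± 0.23 with Xrn1 and 0.46 ± 0.41 without in uninduced cells. For both pairs the Xrn1 arrays lay below the untreated arrays with no overlap, in both states. EXOSC7 minus EXOSC6 averaged -1.90 ± 0.33 with Xrn1 and -1.28 ± 0.53 without in induced cells, and -1.26 ± 0.26 with Xrn1 and -1.93 ± 0.38 without in uninduced cells, so it ran in opposite directions in induced and uninduced cells. These differences were formed after the single levels had been seen and were not tested.

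**Figure D3:**
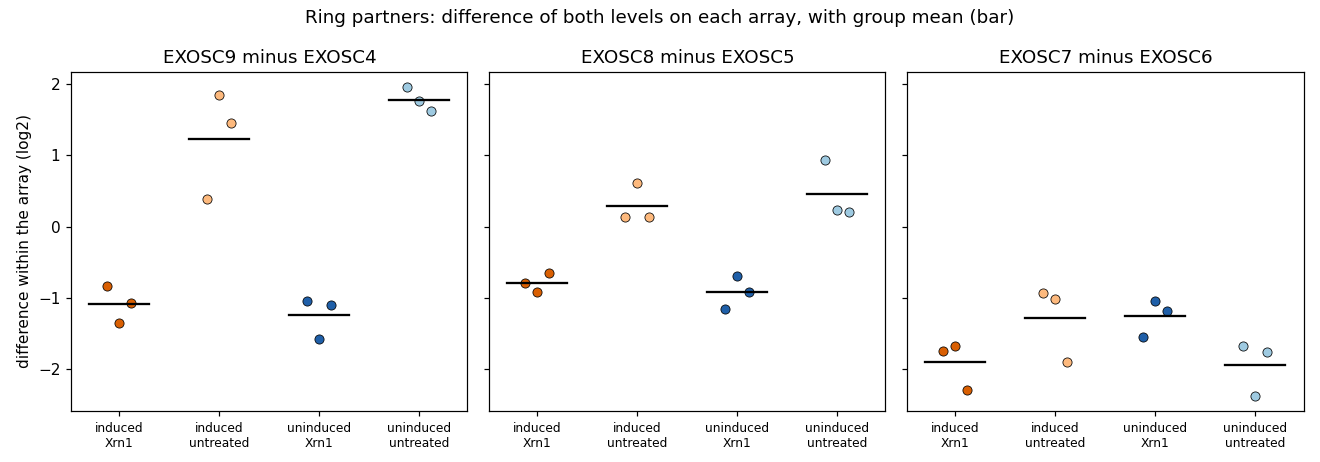
Difference of the log2 levels of ring partners on each array, by group, with bars at the group means (n = 3). EXOSC9 minus EXOSC4 and EXOSC8 minus EXOSC5 are lower on every Xrn1 array than on every untreated array, and EXOSC7 minus EXOSC6 is not.

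EXOSC10 (gene ID 5394, chr1:11066618-11099869), the nuclease RRP6 that joins the nuclear exosome, had levels of 3.69, 3.31 and 3.44 in induced Xrn1 samples, against 3.94, 4.74 and 4.40 in induced untreated samples. In uninduced cells it had 3.19, 3.83 and 3.56 with Xrn1, against 4.66, 3.45 and 4.75 without. The induced groups did not overlap, while uninduced untreated replicate 2 lay among the Xrn1 arrays. The difference was -0.88 in induced cells (limma adjusted p = 0.0296) and -0.76 in uninduced cells (limma adjusted p = 0.0617). Without uninduced replicate 2 in either group the uninduced difference was -1.33 (limma adjusted p = 0.003). The induced call ended with each gene's own spread (limma adjusted p = 0.114) and without induced untreated replicate 2 (-0.69, 0.179) or 3 (-0.86, 0.0598) or induced Xrn1 replicate 2 (-0.80, 0.124) or 3 (-0.86, 0.0971).

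The response to Xrn1 differed between induced and uninduced cells for 3 subunits by limma's interaction term: EXOSC1 by 1.77 (limma adjusted p = 0.0149), EXOSC8 by 1.67 (limma adjusted p = 0.0184) and EXOSC5 by 1.37 (limma adjusted p = 0.0351). Each is the induced minus the uninduced difference. For EXOSC1 and EXOSC8 the fall called in uninduced cells was smaller and not called in induced cells. For EXOSC5 the induced difference was above 0, at 0.46, and also not called. Of all genes, 20.6% were called higher and 1.23% lower in this comparison, and the median of the 10 subunits was 0.58, against 0.70 over all genes. None of the 3 interactions passed with each gene's own spread (limma adjusted p = 0.0925 for EXOSC1 and EXOSC8 and 0.0971 for EXOSC5).

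Induction itself gave no call among the subunits, either in untreated RNA or in Xrn1-digested RNA. Over all genes limma called 0.0415% in untreated RNA and 0.0592% in digested RNA. In untreated RNA the largest changes were in EXOSC1 at -0.94 (limma adjusted p = 0.11) and EXOSC8 at -0.85 (limma adjusted p = 0.113), the 2 subunits for which induced values all lay below uninduced values (17.4% of all genes did). Without induced untreated replicate 3, the array that resembled the uninduced group, the differences were -1.11 for EXOSC1, -1.03 for EXOSC8 and -0.94 for EXOSC5 (limma adjusted p = 0.0107, 0.0166 and 0.0265). The share of all genes called without that array is not given here, and the 0.0415% above does not apply to these calls. In digested RNA 4 subunits had induced values all above uninduced values (31.3% of all genes did): EXOSC1 at 0.83, EXOSC8 at 0.82, EXOSC5 at 0.69 and EXOSC6 at 0.33, with limma adjusted p = 0.523 for EXOSC1 and EXOSC8, 0.534 for EXOSC5 and 0.642 for EXOSC6. At an unadjusted limma p under 0.05, EXOSC1, EXOSC5 and EXOSC8 passed in both induction comparisons, as did 30.8% of all genes in untreated RNA and 9.09% in digested RNA. With its own spread EXOSC5 missed that level in both comparisons.

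The single probe sets show how evenly each mRNA responded. Of the 129 kept probe sets, 35 were called lower after Xrn1 in induced cells and 3 higher, against 14.3% and 7.92% of all 258175 probe sets. In uninduced cells 55 were called lower and 6 higher, against 26.4% and 5.03% of all probe sets. No probe set of a subunit was called for induction (0% of all probe sets were in untreated RNA, and 0.0112% higher and 0% lower in digested RNA) or for the interaction (0.0434% higher and 0.00349% lower). EXOSC2 was the most uniform, with all 13 probe sets negative in both states, 9 called lower in induced and 12 in uninduced cells.

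Other subunits were uneven. Affymetrix probe set numbers follow position along the chromosome in the table as a whole. The median Spearman correlation between gene order and number order was 0.98 on either strand. The exact place of each probe set was not looked up, so numbers served as order. They were read along the gene's strand only for the comparison of 5′ and 3′ ends. The groups named for single subunits were taken by rising number, whatever the strand. In genes with at least 6 kept probe sets, equal numbers at the 5′ and 3′ ends were compared, such as 2 each for EXOSC8. For the average change after Xrn1, the 5′ mean minus the 3′ mean had a median of 0.33 over 11386 genes. It was above 0 in 70.3% of these genes and in 4 of the 7 subunits covered, which leave out EXOSC1, EXOSC3 and EXOSC4. In EXOSC1 the first 7 probe sets by number changed by -3.67 to -2.17 in uninduced cells, all called, and the last 5 by -0.83 to -0.21, none called. In induced cells 6 of the 12 probe sets of EXOSC1 were negative, all among the first 7, at -1.35 to -0.73. The other of the first 7 stood at 1.26, and the last 5 lay between 0.23 and 1.35. None was called in induced cells. In EXOSC9 the first 3 changed by -0.29 to 0.95 in induced cells and by -0.90 to 1.44 in uninduced cells, while the other 14 changed by -2.89 to -0.25 and by -4.08 to -0.37. In EXOSC4 the called rises lay in the last 3 of 6 probe sets, which changed by 0.59 to 2.08 in induced and 1.97 to 2.39 in uninduced cells. EXOSC6 lies on the minus strand, so its first numbers fall toward the 3′ end. Its first 2 changed by -1.59 to -0.28 in induced and -2.19 to -1.55 in uninduced cells. The other 8 lay between 0.21 and 1.72 and between -0.21 and 0.60. EXOSC10 was mixed, with 11 of 35 called lower in each state and 1 called higher in uninduced cells, at 3.12. The groups of probe sets named for single subunits were picked after their values were seen and carry no test.

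**Figure D4:**
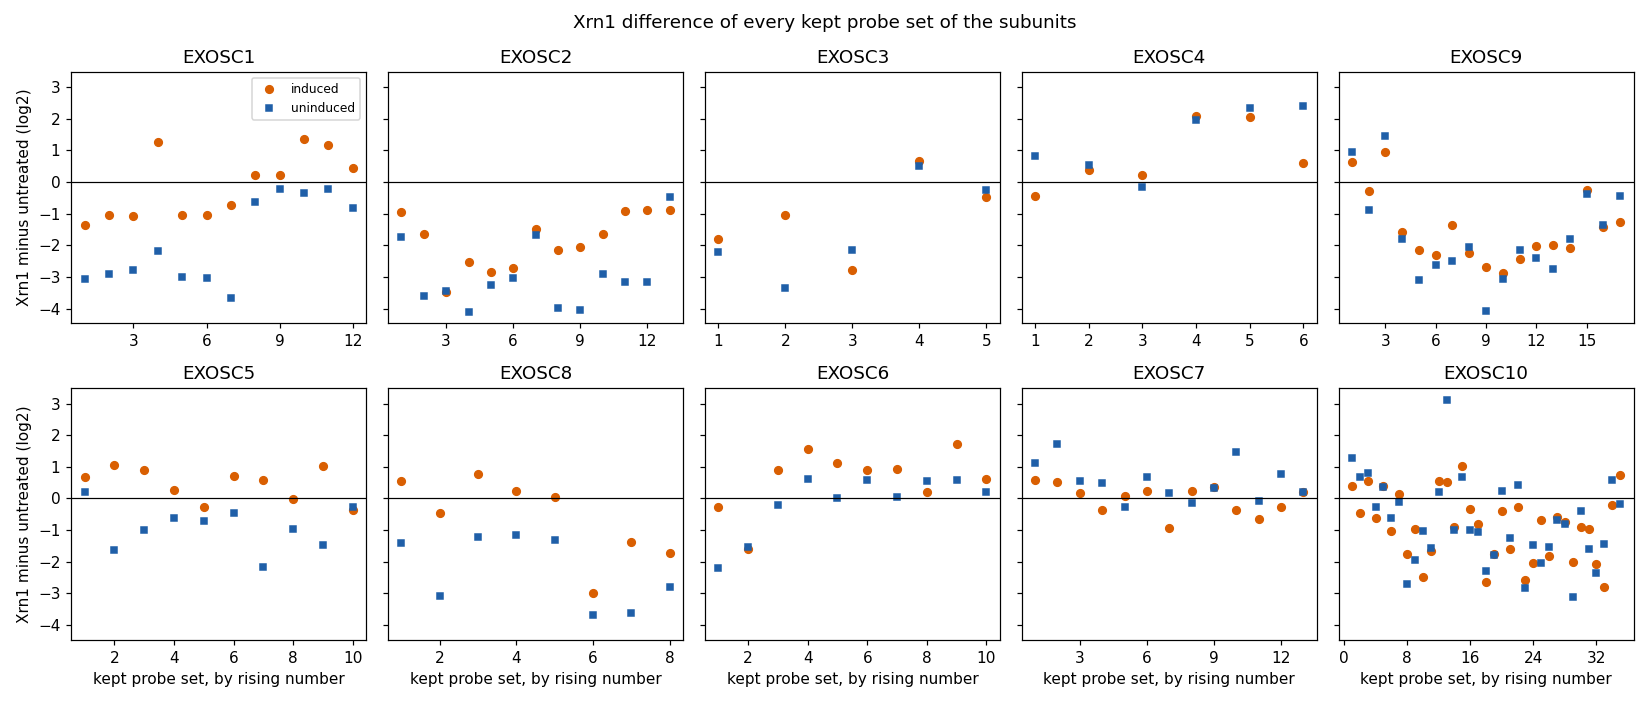
Xrn1 minus untreated (log2) for every kept probe set of each subunit, ordered by probe set number, in induced and uninduced cells. The 13 probe sets of EXOSC2 are all below 0, the first 7 of EXOSC1 lie below the last 5 in uninduced cells, and the last 3 of EXOSC4 lie highest within that gene.

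To set the promoters of the subunits called lower in both states (EXOSC2, EXOSC3 and EXOSC9) beside those called in neither (EXOSC6 and EXOSC7), the 100 bases before the annotated gene start are given 5′ to 3′ on the gene's strand, from RefSeq on GRCh38.p14. Capitals mark a match on either strand to the GC box, spelled GGGCGG, to the CCAAT box, whose name is its spelling, to the ETS factor motif, spelled CCGGAAG, or to the TATA box, spelled TATAAA. No marked matches overlap.
EXOSC2: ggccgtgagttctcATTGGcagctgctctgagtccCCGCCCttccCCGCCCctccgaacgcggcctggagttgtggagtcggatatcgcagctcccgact
EXOSC3: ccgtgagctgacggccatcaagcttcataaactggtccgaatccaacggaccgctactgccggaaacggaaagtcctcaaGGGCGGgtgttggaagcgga
EXOSC9: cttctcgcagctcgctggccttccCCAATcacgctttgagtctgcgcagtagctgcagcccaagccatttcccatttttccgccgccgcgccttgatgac
EXOSC6: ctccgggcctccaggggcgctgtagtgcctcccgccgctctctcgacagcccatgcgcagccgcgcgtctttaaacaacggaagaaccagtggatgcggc
EXOSC7: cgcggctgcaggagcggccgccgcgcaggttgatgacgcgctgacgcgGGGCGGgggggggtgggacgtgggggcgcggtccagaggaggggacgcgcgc
The stretches lie at chr9:130693660-130693759 (plus strand), chr9:37785093-37785192 (minus; this gene has a further annotated start), chr4:121801223-121801322 (plus), chr16:70251941-70252040 (minus) and chr3:44976144-44976243 (plus). Promoters were matched for 8 of the 10 subunits. In the 250 bases before the start, a GC box was found in 6 of the 8 (42.6% of 35116 promoters) and a CCAAT box in 4 of the 8 (32.0%). An ETS motif was found in 0 of the 8 (8.52% of all promoters) and a TATA box in 1 (10.7%). The matches describe the letters in these windows only, and none separated the subunits called lower in both states from those called in neither.

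The nucleases and cofactors that work with the exosome were mostly lower after Xrn1. Of a list of 24, 23 were measured. On average over both states, 16 of them were called lower after Xrn1 (29.8% of all genes) and 0 higher (14.2%). In induced cells 10 were called lower (17.8% of all genes) and 1 higher (21.6%). In uninduced cells 16 were called lower (31.8% of all genes) and 0 higher (7.24%). With each gene's own spread 13 were called on average, 2 in induced cells and 12 in uninduced cells. The shares of all genes called with their own spread are not given here, so these last counts have no background beside them. The list's median change was -0.86 on average (0.05 over all genes), -0.70 in induced cells (0.10) and -1.42 in uninduced cells (-0.27). No member was called for induction.

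MTREX, the helicase that feeds RNA to the nuclear exosome, had levels of 3.24, 2.53 and 2.99 in induced Xrn1 samples, against 4.77, 6.18 and 5.64 in induced untreated samples. In uninduced cells MTREX had 2.90, 3.34 and 3.23 with Xrn1, against 6.08, 4.60 and 5.91 without. Its average change of -2.49 (limma adjusted p = 5.25e-23) was close in size to that of EXOSC2, at -2.42 (limma adjusted p = 1.05e-21). With each gene's own spread the limma adjusted p was 0.00122 for MTREX and 0.000498 for EXOSC2. RBM7, an RNA-binding adaptor of the nuclear exosome, changed by -2.06 (limma adjusted p = 4.21e-16). DIS3, the main catalytic subunit, and DIS3L, its cytoplasmic relative, changed by -1.73 (limma adjusted p = 1.17e-11) and -1.45 (limma adjusted p = 2.02e-08). HBS1L, a gene that also encodes a bridge between the cytoplasmic exosome and the helicase complex SKI, changed by -1.73 (limma adjusted p = 1.2e-11).

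**Figure D5:**
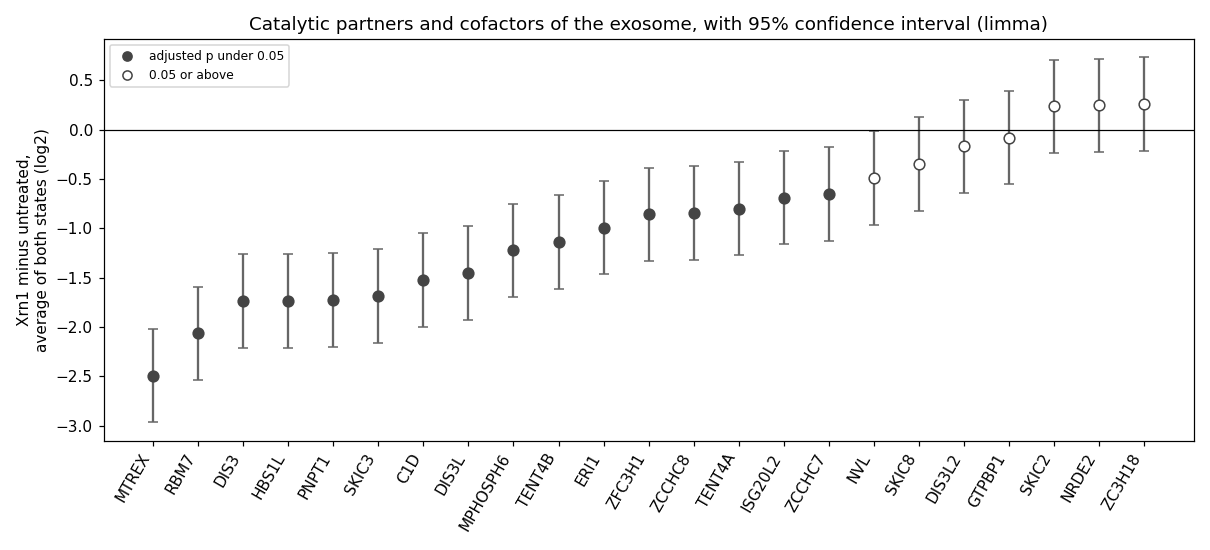
Xrn1 minus untreated (log2), averaged over induced and uninduced cells, for the 23 measured nucleases and cofactors of the exosome, with 95% confidence intervals from limma. The 16 filled points have an adjusted p under 0.05 and all lie below 0, with MTREX lowest at -2.49.

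The 1 gene of the list called higher in induced cells was ZC3H18, which links the exosome to the nuclear cap-binding complex, at 0.98 (limma adjusted p = 0.0155, and 0.0639 with its own spread). It and GTPBP1, a GTPase that has been tied to exosome-mediated decay, were the 2 of 23 with a called interaction, against 20.6% of all genes called higher, at 1.43 (limma adjusted p = 0.0306) and 1.26 (0.0463). Neither interaction passed with the gene's own spread (limma adjusted p = 0.0925 and 0.116). Both were singled out after their values were seen.

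Across the 12 arrays the subunits did not form 1 profile. The correlation of a subunit with the mean of the other 9 ran from -0.68 for EXOSC4 to 0.91 for EXOSC9. The genes outside the list closest to the mean profile of all 10 subunits were SNRPA1 (Pearson r = 0.982), BRD7 (0.979), SF3A3 (0.976), BRCC3 (0.974) and PSMC1 (0.973), all over 12 arrays that share the same 4 groups. These correlations describe a pattern that many genes share: 9.61% of all genes had an r over 0.9, while the median over all genes was 0.20.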

How the data were processed

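The values are log2 exon-array values deposited by the authors, 1 per probe set and array, for 12 arrays in 4 groups of 3. Per the submitters' processing notes they were made with RMA and oligo. RMA is background correction, quantile normalization between arrays and summary of probes. Of 1411399 probe sets, 357604 carried 1 gene symbol in the platform annotation, 15322 several and 1038473 none, and only the first kind was used.

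From there, probe sets whose mean over all arrays was above the median of all means (2.04) were kept, and genes with at least 3 were averaged. Differences were fitted with limma 3.58.1 in R 4.3.3, 1 mean per group, with Benjamini-Hochberg adjustment over 16883 genes and a threshold of 0.05. limma estimated 1 spread common to all genes, which understates that of genes with wide groups, so results with each gene's own spread are given beside each printed single-gene call that it ended. In a simulation every gene was given the common spread, and 200 of 16883 genes were changed. On these simulated data a log2 change of 1 was recovered in 17% of genes within induced cells, 23.5% within uninduced cells and 75% for the average. A change of 2 was recovered in 99.5%, 99.5% and 100%. Recovery in genes with wide groups, or with as many genes changed as were called in the data, was not simulated. The number of arrays limits the precision.

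Groups follow the labels. One induced Xrn1 sample is titled replicate 2, as is another, and was taken as replicate 1 from its sample number. The named genes are all 10 subunits. From the cofactor list they are the 4 with the smallest p for the average plus DIS3, DIS3L and MTREX, and ZC3H18 and GTPBP1 are named outside this rule, after their values were seen. The 5 genes closest to the mean profile are named too. The members, the lists, the pair left out and the tests were chosen with earlier results of these data known. The alternatives were the filter on dim probe sets, the median in place of the mean, centring, cyclic loess, the gene's own spread, a trended prior, fitting only the groups compared, replicate blocks, and leaving out single arrays or uninduced replicate 2. Counts for probe sets and for the cofactor list under these settings were added after the data were seen.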

Additional observations from a re-analysis of the deposited data

Results flagged for a closer look

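For 3 subunits the response to Xrn1 differed between induced and uninduced cells by limma's interaction term, which called 20.6% of all genes higher. None of the 3 passed with each gene's own spread (limma adjusted p = 0.0925 for EXOSC1 and EXOSC8 and 0.0971 for EXOSC5). EXOSC1 differed by 1.77, with an Xrn1 difference of -0.14 in induced cells and -1.90 in uninduced cells. EXOSC8 differed by 1.67, with -0.62 in induced and -2.29 in uninduced cells. EXOSC5 differed by 1.37, with 0.46 in induced and -0.91 in uninduced cells. The median interaction over all genes was 0.70, and 0.23 after centring each array on its median gene, when EXOSC1 and EXOSC8 stood at 1.30 (limma adjusted p = 0.0322) and 1.20 (0.0451) and EXOSC5 at 0.90 (0.101). The 3 subunits also had overlapping Xrn1 and untreated values in induced cells. Single outlying arrays were not tested for, in groups of 3.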

How the results depend on the processing

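The 7 calls for the average over both states held under all 22 alternatives. Of the 7 calls in uninduced cells, 5 (EXOSC1, EXOSC2, EXOSC3, EXOSC8 and EXOSC9) held under all 23, as did 1 of the 5 in induced cells (EXOSC2). With each gene's own spread the induced count fell to 2 subunits and 2 cofactors (11 in the main analysis), the probe sets called in induced cells to 18 (38 in the main analysis) and the interaction count to 0. Cyclic loess also left 0 interactions, and it turned the uninduced difference of EXOSC6 from -0.14 to 0.96. The cause was not tested. With probe sets summarised by their median, EXOSC4 in uninduced cells stood at 0.92 (limma adjusted p = 0.0673). Fitting only the groups compared gave 2 calls for induction with Xrn1, EXOSC1 and EXOSC8. Leaving out single arrays gave 6 to 8 calls in uninduced cells, 2 to 5 in induced cells, 0 to 3 for induction without Xrn1 and 0 to 5 interactions. The induced count was 2 without induced untreated replicate 2 or induced Xrn1 replicate 3, and 3 without induced Xrn1 replicate 2. The induction count was 3 without induced untreated replicate 3. The interaction count was 0 without replicate 1 of either induced group, induced Xrn1 replicate 3, uninduced Xrn1 replicate 2 or the pair of uninduced replicate 2 arrays, and 5 without induced untreated replicate 3. Centring on the median gene moved the all-gene median from 0.70 to 0.23 and that in uninduced cells from -0.27 to 0.09. Shares of all genes called under the alternative settings are not given here.

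The titles give each Xrn1 sample the same number as an untreated sample, without saying whether both came from the same RNA. The main fit and the permutation test did not use this pairing. With 3 arrays per group, the correlations that follow cannot show whether the samples were paired. Deviations of arrays with the same sample number correlated between -0.71 and 0.13, and those with the same replicate number between -0.64 and 0.56. With the replicate number as a block the counts were 7 in uninduced cells, 4 in induced cells, 7 for the average and 3 for the interaction. With the sample number as a block they were 6, 3, 7 and 0.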
